A study of Mus musculus with 96 samples.

Results

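Glo1, Nnt, Wdfy1 and Entpd4 are 4 mouse genes at which inbred mice are known or reported to carry structural variants, and their transcripts were followed across 42 Collaborative Cross strains. The genes were chosen by name, and their members were all 25 transcripts that the reference annotation assigns to them, out of 94545 transcripts and 37945 genes in the deposited table. The table held 2 transcripts of Glo1, 5 of Nnt, 12 of Wdfy1 and 6 of Entpd4. After a filter of 0.5 TPM or more in 2 libraries (TPM is an abundance per transcript length, relative to the sum of 1000000 in each library), all 4 genes and 15 of the 25 transcripts were tested. The other 10 transcripts did not pass it and are not described further.

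The samples were cultured osteoblasts from calvaria (skull bone) of Collaborative Cross pups aged 3 to 5 days, grown for 48 h and then differentiated for 10 days in mineralizing medium (beta-glycerol phosphate and ascorbic acid). All groups shared this treatment, and a group is a strain, with no treated or mutant group. There were 2 libraries each for 31 strains, 3 for 2 strains, 4 for 6 strains and 1 for each of CC011, CC024 and CC035. One CC030 sample was sequenced 2 times and was counted as 1 library, which gave 95 libraries. The labels do not give sex, litter or batch, nor whether libraries of a strain came from separate animals, so the spread behind every p-value is that between libraries and may in part be technical.

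Collaborative Cross strains are recombinant inbred mice bred from a fixed set of classical and wild-derived founders, A/J and C57BL/6J among them, so a strain carries the haplotype of a founder at each locus. Glo1 encodes glyoxalase 1, which detoxifies methylglyoxal, a by-product of glycolysis, and lies in a segment that is duplicated in A/J and some other inbred mice. Nnt encodes the nicotinamide nucleotide transhydrogenase of the inner mitochondrial membrane, which makes NADPH, and C57BL/6J carries a deletion of internal Nnt exons. Wdfy1 encodes an endosomal protein with WD repeats and a FYVE domain that takes part in Toll-like receptor 3 and 4 signalling. Entpd4 encodes a nucleoside diphosphatase of the Golgi and lysosomes. The founder haplotype of each strain at these loci was not used here, so levels are given by strain only.

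The markers of the labelled cell type were present in every strain. Strain means of Ibsp, a bone matrix protein, ran from 328.7 to 3876 scaled TPM, and those of Alpl, the mineralizing phosphatase, from 44.9 to 311.8. The summed level of 12 osteoblast markers ran from 9796 to 24200 scaled TPM over the strains, that of 10 macrophage markers from 49.97 to 4199 and that of 5 adipocyte markers from 5.35 to 118.5, while those of 4 endothelial and 5 skeletal muscle markers did not exceed 2.36 and 3.06. Cultures thus differed by strain in macrophage and adipocyte marker RNA, and the osteoblast and macrophage sums are given beside the results they move with. In these bulk cultures, fewer cells of a type and less RNA per cell cannot be told apart.

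The models that differ between strains, or that cannot be separated, are shown first, as the reference annotation (GENCODE vM21, GRCm38, a C57BL/6J genome) gives them. The annotation behind the deposited table may differ in places. On the minus strand of chromosome 17 (Glo1 at chr17:30584936-30626871), the table holds a long and a short Glo1 model. The long one (ENSMUST00000024823, 2024 bases) has an exon of 131 bases (exon 3, chr17:30603387-30603517) that the short one (ENSMUST00000167624, 895 bases) skips, and ends in an exon of 1366 bases, most of which the short one lacks. The short model is annotated as protein-coding and the long one as a target of nonsense-mediated decay. These 30 bases of each span the junction after exon 2 (chr17:30604020-30604102), with the next exon in capitals.
Long Glo1 model: ggttcttggactgacGTGCTTGCAGACAGC
Short Glo1 model: ggttcttggactgacCCTCCTGCAGAAGCT

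Nnt lies on the minus strand at chr13:119335448-119408997. Nnt-202 (ENSMUST00000099149, 3464 bases, 17 exons) includes exons 8 and 9 of 146 and 196 bases, both coding (chr13:119374629-119374774 and chr13:119372396-119372591), and Nnt-201 (ENSMUST00000069902, 3122 bases, 15 exons) skips both. The junctions after exon 7 (chr13:119381676-119381863) tell these models apart, again with the next exon in capitals.
Nnt-202: cagctctgattccagGTGGTTTTCTGGTGA
Nnt-201: cagctctgattccagGCCTGACGATCGCAA

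Wdfy1 lies on the minus strand at chr1:79702262-79776143. Its 4 full-length models (ENSMUST00000113512, ENSMUST00000113513, ENSMUST00000113514 and ENSMUST00000113515) are 4551 bases each and have the same sequence, because 3 coding exons (exons 4 to 6) occur as identical copies 7442 bases apart in the reference. They had the same value in every library, and their sum is the full-length level. Exon 4 in the first of them (upstream copy, chr1:79729656-79729710) and in the second (downstream copy, chr1:79722214-79722268) is shown to let the copies be compared, and no base differs.
Upstream copy of exon 4: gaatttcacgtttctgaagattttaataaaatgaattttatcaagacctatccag
Downstream copy of exon 4: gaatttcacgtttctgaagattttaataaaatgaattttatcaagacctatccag

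Entpd4 lies on the plus strand at chr14:69337174-69367270, and its near-identical copy Entpd4b at chr14:69555424-69585520. Its longest tested model (ENSMUST00000184973, 3589 bases) has the same sequence as a model of Entpd4b, and both had the same value in every library. Another model (ENSMUST00000064831, 1842 bases) is the coding part of that sequence and is contained whole in it, so its level could come from either gene. Values named Entpd4 are therefore uncertain as to the copy, and results are given also with both genes summed.

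All 4 genes differed between strains. Tested in the 39 strains with 2 or more libraries (92 libraries), each passed the strain effect test (limma's moderated F, Benjamini-Hochberg over 15673 genes), with adjusted p = 1.02e-34 for Glo1, 3.21e-19 for Wdfy1, 5.09e-19 for Nnt and 1.89e-14 for Entpd4. Of all genes tested, 81.5% passed this test, so a pass alone does not set these genes apart. The share of variance between strains (the intraclass correlation) was 0.972 for Glo1, 0.883 for Wdfy1, 0.881 for Nnt and 0.815 for Entpd4, beside a median of 0.472 over all genes tested. The range between the highest and the lowest strain mean was 2.00, 1.86, 1.83 and 1.45 on the scale of log2(scaled TPM + 0.5), beside a median of 1.03. The genes were chosen with earlier results of these data known, so these comparisons with all genes are a description and no support. The CC030 sample that was sequenced 2 times gives 1 difference between runs for each gene, which is not a spread. Its second run differed from its first by -0.11 for Glo1, 0.01 for Nnt, -0.12 for Wdfy1 and -0.01 for Entpd4 on the log2 scale. The shape of the distribution differed between the genes, as the plot of every library by strain shows.

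**Figure D1:**
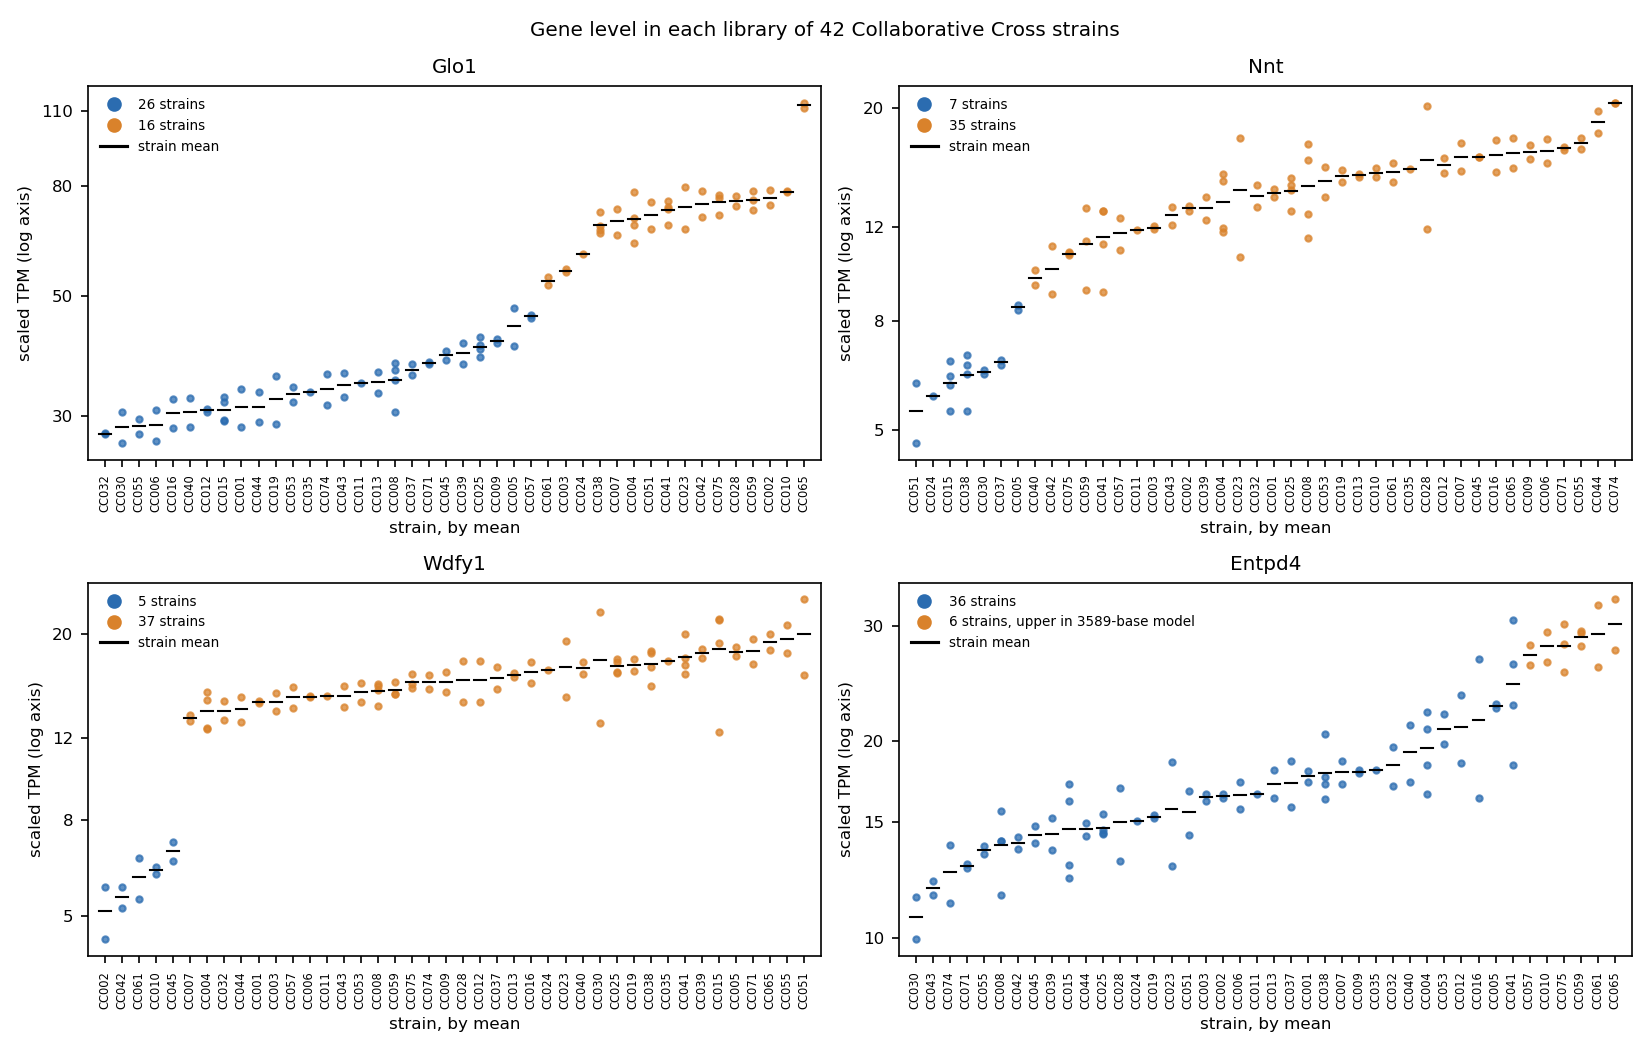
Each panel plots 1 gene, with strains on the x axis in order of their mean, scaled TPM on a log y axis, a point for each of the 95 libraries and a black bar for the strain mean. Colours mark the sets of strains described in the text: Wdfy1 shows 5 strains well below the other 37, Glo1 shows 16 strains above 26 with CC065 on top, Nnt shows 7 low strains, and Entpd4 rises to 6 strains at its upper end.

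Wdfy1 was much lower in 5 strains than in the other 37, across a gap of 0.90 on the log2 scale. That was wider than any gap of Glo1, Nnt or Entpd4 on this scale, though not in residual SDs (5.51, against 5.54 for Glo1). The 2 libraries of CC002 had 5.76 and 4.45 scaled TPM, those of CC042 had 5.18 and 5.75, those of CC061 had 5.43 and 6.64, those of CC010 had 6.35 and 6.14, and those of CC045 had 6.55 and 7.18. The other 37 strains ran from 12.3 to 23.7 scaled TPM over 85 libraries, with strain means from 13.2 in CC007 to 20.02 in CC051 (median 16.1). No library of the 5 strains reached the lowest library of the others. A new level was set to begin where neighbouring strain means differed by more than 3 residual SDs of the gene (0.49 on the log2 scale for Wdfy1), which gave 2 levels, and these levels are a description of the same values and carry no test. Apart from that gap the order was nearly continuous: of the 41 pairs of neighbouring strains, 39 had overlapping libraries.

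Each strain was also set against the unweighted mean of the other 38 by limma, adjusted over all strains and genes. The 5 low strains were the only ones of the 39 lower in Wdfy1, and 10 were higher, among all strain and gene pairs of which 7.11% were lower and 7.74% higher. Here and below, sets of strains and contrasts come from the same values, so their overlap adds no support. The differences were -1.44 ± 0.12 for CC002 (log2, SE, n = 2 libraries, limma adjusted p = 4.64e-15) and -1.03 ± 0.12 for CC045 (n = 2, limma adjusted p = 5.95e-10), which were the largest and the smallest of the 5. The highest strain, CC051, differed by 0.47 ± 0.12 (n = 2, limma adjusted p = 0.00272), but its libraries had 23.7 and 16.4 scaled TPM and overlapped those of its neighbours. The summed level of the 10 macrophage markers was 127.5 to 434.9 scaled TPM in the 5 strains, against 49.97 to 4199 in the other 37. That of the 12 osteoblast markers was 14100 to 24200 in the 5 strains, against 9796 to 22700 in the other 37. The part of these markers in the Wdfy1 level was not tested.

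The low level lay in the full-length models. Each of the 4 models had 0.841 to 1.10 scaled TPM in the 10 libraries of the 5 strains, against 2.95 to 5.86 in the 85 other libraries. Together they made up 55.4% to 80.7% of Wdfy1 TPM in the 5 strains, against 93.3% to 99.4% in the other 37. Among transcripts, where 53.4% of 39416 tested passed the strain effect test, the full-length model had a limma adjusted p of 4.37e-22. The 5 strains were again its only lower strains, among all strain and transcript pairs of which 3.16% were lower and 3.8% higher.

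A short model went the other way. The 914-base Wdfy1 model (ENSMUST00000143368, 7 exons) begins upstream of the full-length models and ends within the upstream copy of exon 6, and a 717-base model (ENSMUST00000048820, 5 exons) runs on past the upstream copy of exon 5. The 914-base model had 1.27 and 1.37 scaled TPM in CC045, 0.468 and 0.834 in CC061, 0.490 and 0.572 in CC042, and 0.599 and 0.126 in CC010. The 87 libraries of the other 38 strains did not exceed 0.112. CC002, which was lowest for the gene, had less than 0.01 scaled TPM of it in both libraries, so the short model was above 0.112 in 4 of the 5 strains and near 0 in the other. The model passed the filter only through libraries of these 4 strains, so its levels are given with no test.

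The 2 short models together made up 35.3% ± 4.90 of the Wdfy1 TPM in CC010 (SD, n = 2), 29.0% ± 13.3 in CC045 (n = 2), 13.1% ± 4.67 in CC042 (n = 2), 11.5% ± 2.75 in CC061 (n = 2) and 0.187% ± 0.125 in CC002 (n = 2). In the other 37 strains their mean share did not exceed 5.36%, the value of the single CC035 library. Because TPM is a relative abundance per length, a short model gains TPM from few reads. The 717-base model passed the strain effect test with a limma adjusted p of 0.0299 and 1 strain higher, CC010, with 1.42 and 2.25 scaled TPM. That pass was lost when either CC010 library was left out (limma adjusted p = 0.147 and 0.379). A pair of models that share a sequence of 704 bases did not pass (limma adjusted p = 0.259). CC061, 1 of the 5 low strains, was higher in each than the mean of the other strains (0.83 ± 0.23, log2, SE, n = 2, limma adjusted p = 0.0139). The CC061 mean was 0.582 scaled TPM for each model of the pair.

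**Figure D2:**
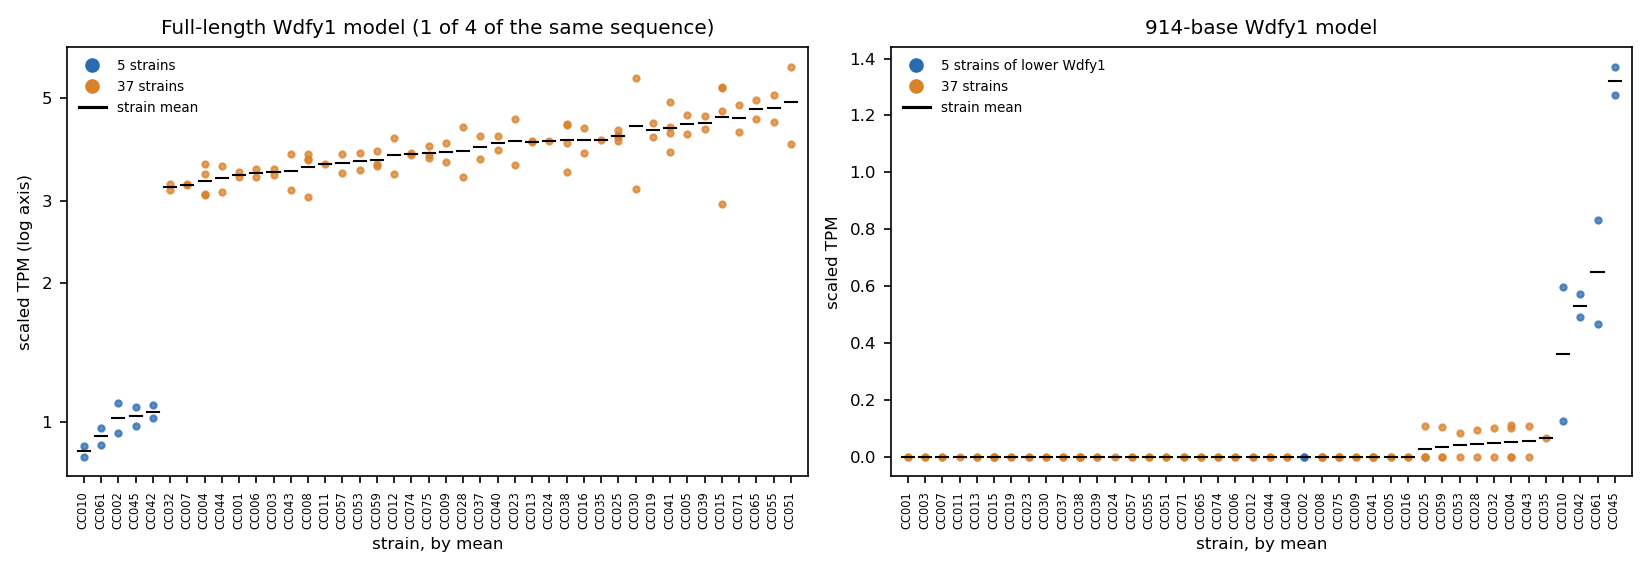
The left panel plots the full-length Wdfy1 model and the right panel the 914-base model, with strains on the x axis in order of the mean and scaled TPM on the y axis (log on the left), a point for each library and a black bar for the strain mean. The 5 strains of the lower Wdfy1 level sit at 0.841 to 1.10 on the left, and 4 of them, all but CC002, stand above 0.112 on the right.

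Glo1 was the member with the smallest spread between libraries of a strain, and it separated 16 strains from 26. CC065 was highest, with 113.7 and 111.5 scaled TPM. CC032 was lowest, with 27.8 and 27.9 scaled TPM. The gap of 0.53 on the log2 scale between CC065 and the next strain, CC010 (78.3 and 77.7 scaled TPM), exceeded the 3 residual SDs (0.29) that mark a new level, so CC065 formed a level of its own, though not on deposited TPM without scaling, where the rule gave 1 level. Below it, the widest gap lay between CC061 (52.5 and 54.3 scaled TPM) and CC057 (46.2 and 45.6). That gap of 0.22 on the log2 scale was 2.28 residual SDs, under the limit, but no library lay between 47.5 and 52.5 scaled TPM.

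An equal-variance Gaussian mixture of the strain means, chosen after the values were seen, placed the Glo1 boundary at that gap, with 26 strains below and 16 above, and no strain had a posterior under 0.9. The 26 strains ran from 26.8 to 47.5 scaled TPM over 56 libraries, with a median strain mean of 33.4. The 16 strains ran from 52.5 to 113.7 over 39 libraries, with a median strain mean of 72.5. The upper 16 were not evenly spread: CC061, CC003 and CC024 had means of 53.4, 55.7 and 59.7 scaled TPM, 12 strains lay between 67.6 and 78.0, and CC065 lay above. Over all 41 pairs of neighbouring strains, 34 had overlapping libraries.

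Tested against the mean of the other strains by limma, 15 of the 39 strains were higher in Glo1 and 21 were lower. The 15 were the strains of the upper set other than CC024, which had 1 library and was not tested. The set was formed from the same strain means, so this overlap adds no support. CC065 differed by 1.34 ± 0.07 (log2, SE, n = 2 libraries, limma adjusted p = 4.05e-23), and CC032 by -0.72 ± 0.07 (n = 2, limma adjusted p = 5.56e-12). CC057, the highest of the lower set, did not pass (0.01 ± 0.07, n = 2, limma adjusted p = 0.926). The macrophage markers summed to 85.6 to 2155 scaled TPM in the 16 upper strains, against 49.97 to 4199 in the 26 lower ones, and the osteoblast markers to 15000 to 24200 and 9796 to 22700. The part of these markers in the Glo1 sets was not tested.

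The Glo1 transcripts divided the strains along another line. The long model carried most of the gene TPM and followed the gene, with CC065 at 93.4 and 91.2 scaled TPM and the 93 other libraries between 21.6 and 68.7. The short model had a mean of 1.28 scaled TPM or less in 8 strains (CC006, CC008, CC011, CC025, CC039, CC043, CC071 and CC074), against 3.08 to 20.3 in the other 34. The models differ in the 131-base exon and also in the last exon, and junction reads were not counted, so exon skipping was not measured. All 8 belonged to the lower 26 of the gene. Its mean share of Glo1 TPM was 0.00174% to 3.21% in those 8 strains, against 11.1% to 27.8% in the other 34. The 4 libraries of CC025 ranged from 0.105 to 4.16 scaled TPM, so the 2 sets overlapped in single libraries, where the lowest of the 34 strains was 2.02 in CC032. The short model passed the strain effect test (limma adjusted p = 9.46e-19), with 7 strains lower, which were the 8 without CC011, and 10 higher.

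Genes beside Glo1 moved with it to differing degrees, which is given as a description over 42 strain means. The segment known to be duplicated in A/J also takes in Dnah8, Glp1r and part of Btbd9. Btbd9 was the gene most like Glo1 of all tested (Pearson r = 0.71, Spearman rho = 0.58). Its lowest coordinate lies 0.369 Mb from that of Glo1. Of the 16 strains with the highest Btbd9 means (strain means 1.82 to 3.30 scaled TPM over all strains), 13 were in the upper Glo1 set. That set holds 16 of the 42 strains. Dnah8, an axonemal dynein gene that overlaps Glo1 on the opposite strand, had r = 0.47, and 11 of its 16 highest strains were in the upper Glo1 set. The libraries were stranded, but no source used here says whether counting used the strand. Glp1r had r = -0.01, and 5 of its 16 highest strains were in the upper Glo1 set. Zfand3 had r = 0.13, Mdga1 -0.05 and Abcg1 -0.13. Strain means were low for Glp1r (0.0682 to 0.876 scaled TPM) and Dnah8 (0.132 to 1.34), where the log2 scale used understates changes. The next most like Glo1 were Mapk13 (r = 0.60), Ppil1 (0.60) and Cyp4f16 (0.58), all within 1.95 Mb by lowest coordinate, and the pseudogene Rps18-ps1 on chromosome 4 (0.57). The median absolute r of all other tested genes with Glo1 was 0.111, and 4.94% of them lie on chromosome 17.

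Nnt had a low end without a clear border. The 2 libraries of CC051 had 4.74 and 6.13 scaled TPM, the single library of CC024 had 5.79, the 4 libraries of CC015 had 5.44, 6.75, 6.07 and 6.31, and the 4 of CC038 had 6.39, 6.63, 6.92 and 5.43. CC030 had 6.49 and 6.38, and CC037 had 6.64 and 6.77. CC005 followed at 8.58 and 8.41, and the other 35 strains ran from 9.01 to 20.5 scaled TPM, with CC074 highest at 20.4 and 20.5. The 6 lowest strains did not overlap with CC005, nor CC005 with the strains above it. The gap under CC005 was 0.32 on the log2 scale, or 1.91 residual SDs, so the gap rule gave 1 level, whereas the mixture chosen after the values were seen gave 7 strains with CC005 below and 35 above.

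Against the mean of the other strains, 8 of the 39 strains were lower in Nnt and 10 higher by limma. CC051 differed by -1.19 ± 0.12 (log2, SE, n = 2 libraries, limma adjusted p = 1.50e-11), and CC074 by 0.69 ± 0.12 (n = 2, limma adjusted p = 1.53e-05). The macrophage markers summed to 49.97 to 4199 scaled TPM in the 7 low strains, against 84.7 to 3375 in the other 35, and their part was not tested. Both tested models had low strain means in the low strains. Nnt-202, with both exons, had 3.50 to 5.76 scaled TPM in the 6 lowest strains, against 6.26 to 16.96 in the other 36, and the sets did not overlap. Nnt-201, without them, was lowest in CC040, and its next 7 strains from the bottom were the 7 low strains of the gene. It passed the strain effect test (limma adjusted p = 0.000137), with CC015, CC030 and CC040 lower and no strain higher, while Nnt-202 was lower in CC015, CC030, CC037, CC038 and CC051 and higher in CC044, CC065 and CC074. Nnt-201 varied more between libraries of a strain than Nnt-202 (residual SD 0.55 against 0.21 on the log2 scale). In CC051, the lowest strain of the gene, Nnt-201 made up 1.82% of Nnt TPM in 1 library and 38.0% in the other. Its mean share of Nnt TPM had a median of 17.99% over the strains. This mean was lowest in CC040, at 3.96% ± 0.142 (SD, n = 2), and highest in CC011, at 30.6% in its single library. No exon absent from the reference genome can be measured with these models.

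Of the 3 tested genes on either side of Nnt, Fgf10, a growth factor, was most like it (r = 0.50, rho = 0.41), and the r of Paip1, Mrps30, 4833420G17Rik, Gm9752 and Emb lay between -0.13 and 0.06. The genes most like Nnt over 42 strains were Pdia3 (r = 0.63, rho = 0.57), Cox7c (0.59, 0.37), Gbp2b (-0.56, -0.27), Gm15326 (-0.55, -0.44) and Calr (0.55, 0.48). The rank values of Cox7c and Gbp2b were much smaller than their r. Pdia3 and Calr are chaperones of the endoplasmic reticulum, and Cox7c is a subunit of cytochrome c oxidase. The median absolute r of all other tested genes with Nnt was 0.110.

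Entpd4 rose gradually over the strains and ended in 6 strains at its top. CC065 was highest, with 32.9 and 27.5 scaled TPM, and CC030 was lowest, with 9.94 and 11.5. The 6 highest means were those of CC065, CC061, CC059, CC075, CC010 and CC057, between 27.0 and 30.2 scaled TPM, and the next strain, CC041, had a mean of 24.5 with libraries from 18.4 to 30.6. The libraries of these 6 strains thus overlapped with others, and the gap rule gave 1 level. CC065 differed from the mean of the other strains by 0.77 ± 0.12 (log2, SE, n = 2 libraries, limma adjusted p = 2.63e-06) and CC030 by -0.72 ± 0.12 (n = 2, limma adjusted p = 1.06e-05). By limma, 8 strains were higher and 9 lower. With Entpd4b summed in, 7 were higher and 6 lower, the strain effect had a limma adjusted p of 2.09e-14, and CC065 and CC030 stayed at the ends.

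The same 6 strains stood further apart in the model that Entpd4 shares with Entpd4b. The 3589-base model had 8.50 to 10.3 scaled TPM in their 14 libraries, against 2.82 to 8.53 in the 81 others, and 1 library of CC016 was above the lowest of the 6 strains. The gap under CC061 was 0.44 on the log2 scale, short of the 0.53 that mark a level. They were the only strains higher in it by limma, and 3 were lower (strain effect limma adjusted p = 7.79e-14). The 1842-base model had no such gap, with strain means from 6.88 to 19.4 scaled TPM. Another tested model of 989 bases, also shared with Entpd4b, reached at most 0.847 scaled TPM in any library, and 20 strains had a mean of 0.102 or less.

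Genes that lie between Entpd4 and Entpd4b gave a sharper pattern. Gm16867, an annotated protein-coding gene that overlaps the end of Entpd4 on the opposite strand, had a mean of 3.41 scaled TPM in CC057, 3.70 in CC059, 4.02 in CC075, 4.61 in CC061, 4.66 in CC010 and 4.89 in CC065. The other 36 strains had means of at most 0.262, and no library of the 36 exceeded 0.350, while the lowest library of the 6 had 2.64. The 6 highest strains of Gm16867 were thus the 6 highest of Entpd4, and the same held for Entpd4b and for the pseudogene Gm21451, which had 0.115 to 0.890 in the 6 strains and at most 0.0354 in the others. Gm16867 and Gm21451 passed the filter only through libraries of these 6 strains, so their levels and r are a description and no support. Entpd4b (r = 0.83), Gm16867 (0.78) and Gm21451 (0.71) were the genes most like Entpd4 over 42 strains, followed by Aurkaip1 (0.68) and Ndufaf3 (0.68) on other chromosomes. Spearman's rho was 0.62 for Entpd4b, 0.57 for Gm16867, 0.70 for Aurkaip1 and 0.60 for Ndufaf3, but 0.23 for Gm21451, which was near 0 outside the 6 strains, so that these strains carry its r. Entpd4b shares models with Entpd4, and reads of the overlap with Gm16867 can be assigned to either gene if strand was not used, so these values are not independent of Entpd4. On the other side, Slc25a37, Rps2-ps5 and Stc1 had r between -0.23 and 0.08.

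**Figure D3:**
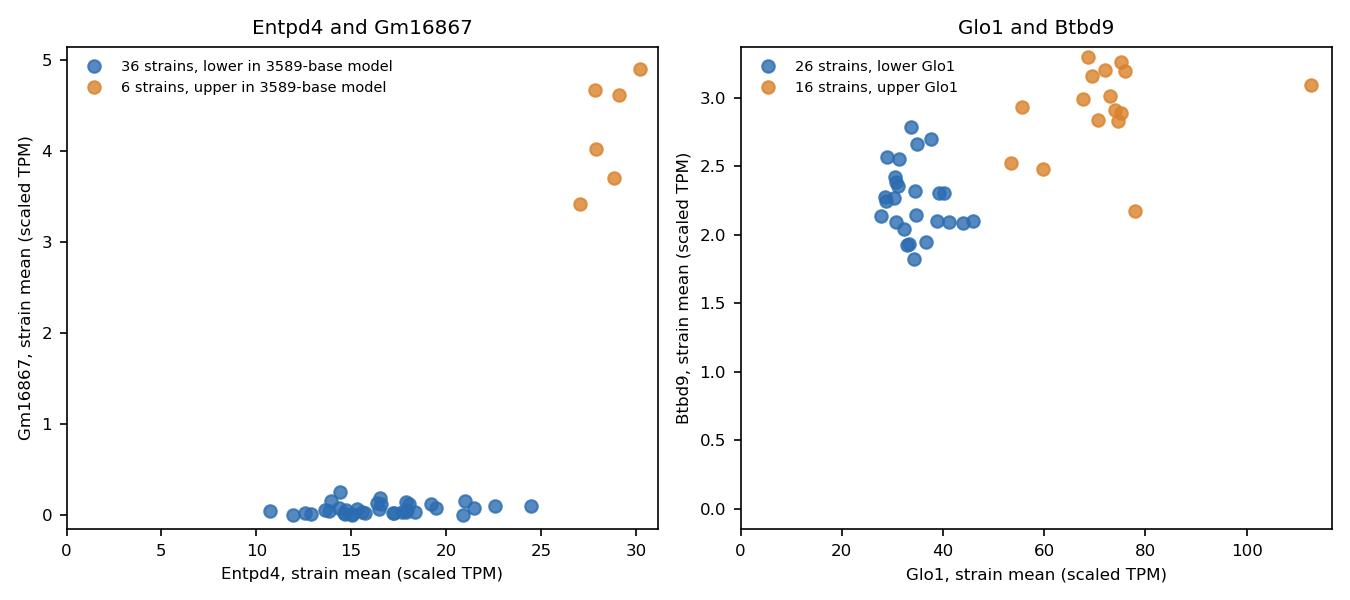
Each point is 1 of the 42 strains, with strain means in scaled TPM on both axes: Gm16867 against Entpd4 on the left and Btbd9 against Glo1 on the right. The 6 strains of the upper 3589-base set lie at 3.41 or more of Gm16867 and the other 36 at 0.262 or less, while the Glo1 sets overlap in Btbd9.

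Entpd4 moved with the summed osteoblast and macrophage markers. The median absolute r of all other tested genes with Entpd4 was 0.190, which is not a background for the marker sums. The share of all genes that relate as strongly to these sums was not computed, so the passes below do not set Entpd4 apart. Over 42 strains Entpd4 rose with the summed osteoblast markers (Pearson r = 0.504, Spearman rho = 0.507, permutation p = 0.00072 and 0.00066, adjusted 0.00469 and 0.00667 over 14 relations). It fell with the summed macrophage markers (r = -0.491, rho = -0.478, permutation p = 0.00104 and 0.00143, adjusted 0.00469 and 0.00667). Without the 2 strains farthest from the median of the marker sum, r was 0.419 and -0.397. Within the 36 strains below the upper set of the 3589-base model, r was 0.568 and -0.510 (permutation p = 0.00033 and 0.00134, adjusted 0.00462 and 0.00469; rho = 0.517 and -0.414), and 0.516 and -0.359 without the 2 farthest of these. The permutation tests were two-sided with 100000 draws, and the part of the marker-defined cells in the Entpd4 level was not tested. The lowest Entpd4 strain, CC030, had the highest macrophage sum.

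**Figure D4:**
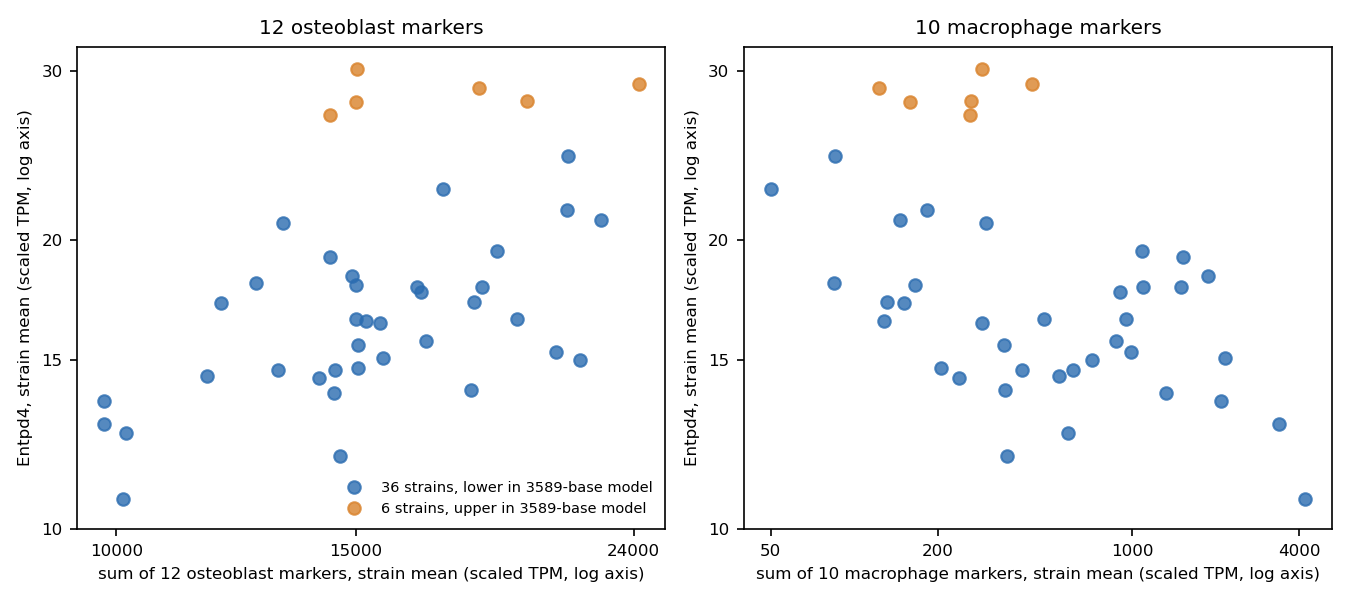
Each point is 1 of the 42 strains, with the strain mean of the summed markers on the x axis (12 osteoblast markers on the left, 10 macrophage markers on the right) and the strain mean of Entpd4 on the y axis, in scaled TPM on log axes. Entpd4 is higher where the osteoblast sum is higher and lower where the macrophage sum is higher, and the 6 strains of the upper 3589-base set lie above the rest at osteoblast sums that others also reach.

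For the other members, the relation was computed within their sets of strains. In the 26 strains of the lower Glo1 set, Glo1 fell with the macrophage sum (r = -0.516, rho = -0.489, permutation p = 0.00654 and 0.0119, adjusted 0.0183 and 0.0361, and r = -0.364 without the 2 farthest strains). In the 16 of the upper set the same relation had r = -0.302 and rho = -0.553, with adjusted p of 0.384 and 0.0667 in permutation tests, and did not pass. No relation of Nnt in its sets of 7 and 35 strains, of Wdfy1 in its 37 strains, or of Glo1 with the osteoblast sum passed after adjustment (lowest adjusted p = 0.114 for Nnt in 35 strains, permutation test of r).

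The genes most like Wdfy1 over 42 strains were D7Ertd443e (r = -0.63, rho = -0.52), Nxf2 (-0.61, -0.46), Mrpl23 (-0.59, -0.07), Mrpl23-ps1 (0.58, 0.18) and Dner (-0.58, -0.62). Since 5 strains lie apart in Wdfy1, a few strains can carry such an r, and the rank values of Mrpl23 and its pseudogene were far smaller. Of its tested neighbours, Mrpl44 had r = -0.38, Serpine2 -0.35, Ap1s3 0.28, Scg2 -0.16, Kcne4 -0.08 and Cul3 0.04.

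The sets of strains of the members overlapped in part. CC010 and CC061 were on the upper side in Glo1 and the 3589-base Entpd4 model and on the low level of Wdfy1. CC059, CC065 and CC075 were on the upper side of Glo1 and of that Entpd4 model. CC002 and CC042 were on the upper side of Glo1 and on the low level of Wdfy1. CC024, CC038 and CC051 were on the upper side of Glo1 and among the 7 low strains of Nnt. No strain was low in both Nnt and Wdfy1. The 20 strains in the largest class were in the lower Glo1 and Entpd4 sets and the upper Nnt and Wdfy1 sets.

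Most other genes of each member's pathway list had a narrower range over strains than the member. Members and lists were chosen with earlier results of these data known, so this comparison is a description and no support. Of 14 genes for glyoxal and carbonyl detoxification, 13 passed the filter and all 13 passed the strain effect test by limma, where 81.5% of all genes tested passed. Their median range was 0.94 on the log2 scale, beside 1.03 over all genes. Hagh, glyoxalase 2, which acts after Glo1, had r = 0.02 with Glo1 and strain means of 6.91 to 13.8 scaled TPM. The strongest relation in that list was Aldh1a1, an aldehyde dehydrogenase, with r = -0.32 and the widest range (3.14), and Akr1b3, aldose reductase, had the highest r (0.25). In the mitochondrial NADPH and redox list, 21 of 22 genes passed, beside 81.5% of all genes, with a median range of 1.02. The exception was Sod2, the mitochondrial superoxide dismutase, with a limma adjusted p of 0.08. The r with Nnt ran from -0.30 for Prdx5, a peroxiredoxin, to 0.31 for Gpx1, a glutathione peroxidase, and Mthfd2, a mitochondrial folate enzyme, had the widest range (2.67).

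Of 20 genes of FYVE endosomes and the Toll-like receptor 3 and 4 adaptors, 19 passed, beside 81.5% of all genes, with a median range of 0.96. Rab5a, an early endosome GTPase, did not pass (limma adjusted p = 0.23). The r with Wdfy1 ran from -0.18 for Rbsn to 0.34 for Eea1, both early endosome FYVE proteins, and Wdfy4 had the widest range (3.01). In the list of ectonucleotidases and Golgi nucleotide sugar genes, 16 of 17 passed the filter and 15 the test, beside 81.5% of all genes. Slc35d1 did not pass (limma adjusted p = 0.405), and the median range was 1.33. There the r with Entpd4 ran from -0.58 for Ggta1, an alpha-galactosyltransferase, to 0.45 for Entpd3, an ectonucleotidase that also had the widest range (4.33). The range of the member was exceeded by 2 genes of the Glo1 list, 4 of the Nnt list, 3 of the Wdfy1 list and 7 of the Entpd4 list.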

How the data were processed

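RNA libraries were stranded and depleted of ribosomal RNA, per the labels' protocols. The authors deposited 1 TPM value per transcript and library, a relative abundance per length in which each column sums to 1000000. The submitters' processing notes name mm9 and Bowtie; no source used here gives the counting tool. Depth is not recorded in TPM. Of 94545 transcripts, 91225 were found in GENCODE vM21 by identifier and summed per gene, and 1 line that names no transcript was 0 throughout.

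TPM was divided by a factor per library (trimmed mean of log ratios, 30% by ratio and 5% by level, genes of at least 1 TPM; 0.772 to 1.27). Genes and transcripts that reached 0.5 TPM in 2 libraries were fitted on log2(scaled TPM + 0.5), a scale that understates changes of low values, with limma 3.58.1 in R 4.3.3. A moderated F tested 39 strains, contrasts set each against the mean of the others, and p-values were adjusted by Benjamini-Hochberg at 0.05. Count models planned where values were counts were not needed. Scripts were tested on simulated data. Mixtures used mclust 6.1.1. Relations across strains used two-sided permutation tests.

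The members, lists and levels were chosen with earlier results of these data known. Named genes were the members, 3 tested neighbours on each side, the 5 genes of largest absolute r, and the extremes of each list; Hagh was added after its values were seen. Alternatives changed the scaling, pseudocount, filter, runs, strains and libraries.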

Additional observations from a re-analysis of the deposited data

Results flagged for a closer look

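In strains with 4 libraries, a library was marked when its gap to the nearest other, divided by the range on the log2(scaled TPM + 0.5) scale, exceeded Dixon's critical value for 4 libraries. This was asked of the genes and tested transcripts with at least 0.5 TPM in a library of the strain, and 6 of 73 such sets were marked, where chance marks about 1 in 20. No gene was marked, so each case below is a transcript. In CC008, 1 library had 3.07 scaled TPM of the full-length Wdfy1 model, against 3.68 to 3.79 in the other 3 (0.858 of the range). The 717-base Wdfy1 model had 1 high library in CC008 (0.527 scaled TPM, others at most 0.0264, 0.936 of the range), in CC038 (0.624, others at most 0.0363, 0.944) and in CC025 (0.722, others at most 0.014, 0.969). In CC041, 1 library had 0.254 scaled TPM of Nnt-201, against 2.35 to 3.12 in the other 3 (0.848). In CC038, 1 library had 5.37 scaled TPM of the 3589-base Entpd4 model, against 4.25 to 4.32 in the other 3 (0.925).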

How the results depend on the processing

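The strain effect on all 4 genes passed under every alternative run, with limma adjusted p of at most 0.000472, and the number of strains apart from the rest stayed within 1.5 times, except in the subset of strains by sample number. The number of levels was 2 for Wdfy1 under every alternative. For Glo1 it was 3 with a gap of 2 residual SDs and 1 on deposited TPM without scaling. The mixture chosen after the data were seen gave 2 for Nnt and 2 for Entpd4, where the gap rule gave 1; for Entpd4 its gain in BIC over 1 component was 0.945. The cause was not tested. With 1 of 92 libraries left out at a time, levels did not change. Among the 20 strains whose libraries have numbers 20 or more apart in their sample titles (their meaning is not given), the strains lower and higher were 8 and 9 for Glo1, 4 and 0 for Nnt, 1 and 0 for Wdfy1, and 1 and 3 for Entpd4. Among the 19 with numbers up to 5 apart they were 11 and 6, 5 and 7, 4 and 10, and 8 and 6 in the same order of genes. The residual SD was 0.10, 0.23, 0.19 and 0.21 on the log2 scale in the first subset and 0.09, 0.08, 0.11 and 0.11 in the second. Only Entpd4 has a near-identical copy in the table. In the main run, 10 of 11 distinct member transcripts passed the strain effect test, beside 53.4% of all 39416 transcripts tested. These 10 include the short Wdfy1 model that begins upstream of the full-length models. That model passed the filter only through libraries of its high strains, so its pass is no support. Elsewhere the number was 9 to 10, with the 717-base Wdfy1 model lost at a pseudocount of 0.1 (limma adjusted p = 0.185) and without the filter (0.0604). No paired analysis was possible because the labels carry no replicate numbers. Depth is not recorded in the values, so no counting error can be given for the low transcripts.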
